A study of Mus musculus with 8 samples.

Results

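Phosphatidylcholine and phosphatidylethanolamine synthesis was examined through 10 genes in mouse liver, Chka, Chkb, Etnk1, Etnk2, Pcyt1a, Pcyt2, Chpt1, Cept1, Pemt and Lpcat3. These genes were chosen by name, with earlier results of these data known, and all 10 were found among the 11784 genes of the deposited table. The livers came from male C57BL/6J mice moved at 9 weeks of age to an amino acid defined diet, named Control (TD.140711), or to a diet named Low AA (TD.140712), with fewer calories from amino acids and more from carbohydrate. After 4 months on the diets and a fast of about 16 hours overnight, 4 mice from each diet were analysed. Poly(A) RNA was sequenced, and each gene has 1 whole number per mouse, called a scaled read count here because the medians of the mice lie close together, at 433.0 to 449.0. How the numbers were scaled is not given in the sources used here. Differences between the diets are given as Low AA minus Control on the scale of log2(value + 1), positive where Low AA is higher. The comparison asks which of these genes differ in the liver between the diets.

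Phosphatidylcholine and phosphatidylethanolamine are the main phospholipids of cell membranes, and the liver also needs phosphatidylcholine to coat secreted lipoproteins and for bile. Both are made by parallel routes in which choline or ethanolamine is phosphorylated, activated with CTP and transferred onto diacylglycerol. The liver has a further route, in which Pemt methylates phosphatidylethanolamine to phosphatidylcholine with methyl groups from S-adenosylmethionine, which is made from the amino acid methionine.

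None of the 10 genes passed an adjusted p under 0.05 in limma, against 0.399% of all genes tested (47 of 11784, 0.102% higher and 0.297% lower). Most of the 10 genes, Chka, Chkb, Etnk1, Etnk2, Chpt1 and Cept1, act at the kinase or phosphotransferase steps, the first and last of the CDP routes. The genes with an unadjusted limma p under 0.05 were all among these. Etnk2, a kinase as well, had an unadjusted limma p of 0.573. With each of the 8 mice left out in turn, only Chka and Chpt1 kept an unadjusted limma p under 0.05 in all 8 fits. Chkb and Cept1 each did so in 3 of them, and Etnk1 in 2. Chpt1, which carries out the last step to phosphatidylcholine, was lower on the Low AA diet in all 4 mice than in any Control mouse, with a mean at 76.6% of the Control mean. The mean of its paralog Cept1 was at 119% of the Control mean, and those of the choline kinases Chka and Chkb were at 164% and 117%. The means of Pemt, the enzyme of the methylation route, and of Pcyt1a, which sets the pace of the CDP-choline route, were at 98.1% and 104% of their Control means.

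At an unadjusted p under 0.05 there were 5 of the 10 genes, Chka, Chkb, Etnk1 and Cept1 higher and Chpt1 lower, where 11.8% of all genes reached that level, 5.13% higher and 6.7% lower. Values did not overlap between the diets for 2 of the 10, Chkb higher and Chpt1 lower, where 6.81% of all genes had no overlap, 3.26% higher and 3.55% lower. The median log2 difference of the 10 was 0.079, beside 0.0023 over all genes, with 6 of the 10 above 0. With 4 mice against 4, the smallest p a two-sided exact permutation test can give is 0.0286.

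**Figure D1:**
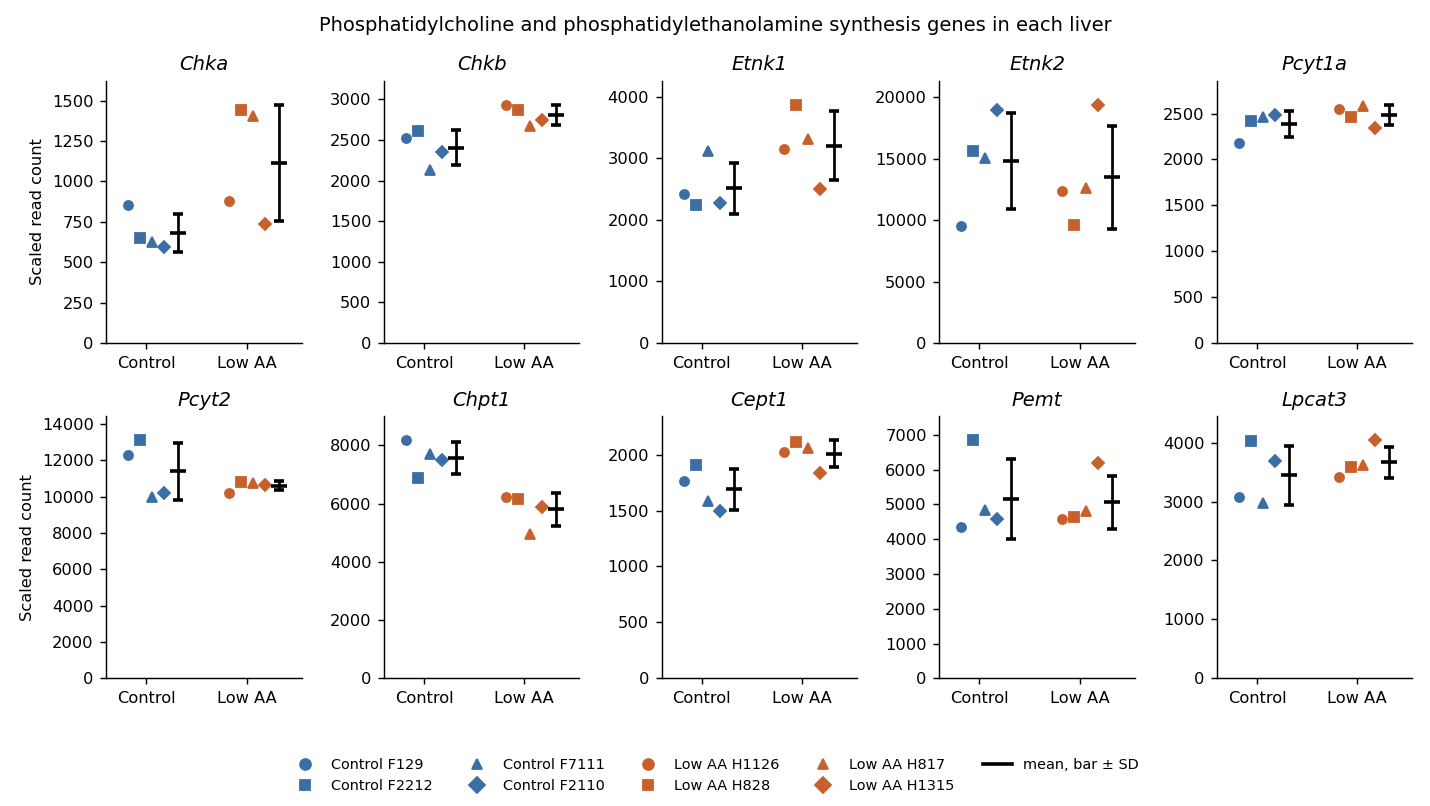
Scaled read count (vertical axes, from 0) of each of the 10 genes in each of the 8 livers, by diet, with 1 marker per mouse and the mean with its SD (n = 4) beside them. Chpt1 separates the diets downward and Chkb upward, and for Chka, Etnk1 and Cept1 the Low AA mouse H1315 sits among the Control mice.

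The start regions of Chka, Chkb, Chpt1 and Cept1 are shown because these genes sit at the ends of the CDP-choline route. They were also chosen as 4 of the 5 genes with an unadjusted p under 0.05, the other being Etnk1 of the ethanolamine route. Cept1 acts in the ethanolamine route as well. The windows are from RefSeq on GRCm38.p6 and run 5′ to 3′ along the gene from 250 bases before to 50 bases after an annotated start. Capitals mark matches, on either strand, to the GC box (GGGCGG) and to the CCAAT box (CCAAT). Each line gives a gene, a colon and its window, in the order Chka (chr19:3851523-3851822, plus strand), Chkb (chr15:89429878-89430177, minus strand), Chpt1 (chr10:88503921-88504220, minus strand) and Cept1 (chr3:106547753-106548052, minus strand).
Chka: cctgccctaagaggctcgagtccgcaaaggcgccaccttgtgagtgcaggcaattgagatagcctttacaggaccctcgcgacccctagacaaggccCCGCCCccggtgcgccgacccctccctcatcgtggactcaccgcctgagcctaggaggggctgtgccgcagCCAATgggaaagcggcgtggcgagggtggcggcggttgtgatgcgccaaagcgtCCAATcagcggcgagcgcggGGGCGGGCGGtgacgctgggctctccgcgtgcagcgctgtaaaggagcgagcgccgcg
Chkb: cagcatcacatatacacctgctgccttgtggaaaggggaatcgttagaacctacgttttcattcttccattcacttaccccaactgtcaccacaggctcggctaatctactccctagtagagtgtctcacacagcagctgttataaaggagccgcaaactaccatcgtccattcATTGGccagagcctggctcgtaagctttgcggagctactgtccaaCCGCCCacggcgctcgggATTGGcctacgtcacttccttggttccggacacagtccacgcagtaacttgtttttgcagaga
Chpt1: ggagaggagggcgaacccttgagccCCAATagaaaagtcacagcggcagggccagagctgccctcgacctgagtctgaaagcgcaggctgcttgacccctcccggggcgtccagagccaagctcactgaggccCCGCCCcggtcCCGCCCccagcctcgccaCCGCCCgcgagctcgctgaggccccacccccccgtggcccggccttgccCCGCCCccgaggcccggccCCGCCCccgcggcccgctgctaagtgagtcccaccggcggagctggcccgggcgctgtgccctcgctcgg
Cept1: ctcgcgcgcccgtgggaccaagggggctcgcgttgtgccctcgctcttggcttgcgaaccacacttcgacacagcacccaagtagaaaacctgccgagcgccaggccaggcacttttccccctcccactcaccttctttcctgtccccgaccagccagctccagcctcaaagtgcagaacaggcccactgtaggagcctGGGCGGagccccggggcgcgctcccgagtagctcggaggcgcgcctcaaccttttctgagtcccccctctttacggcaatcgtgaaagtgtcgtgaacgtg
Chpt1 has the most G and C of these windows, 75.3%, with 5 GC boxes and 1 CCAAT box, and Chka has 68.7%, with 3 GC boxes, of which a pair overlap, and 2 CCAAT boxes. The Cept1 window shown, the one at the start of the GENCODE gene, has 64% with 1 GC box and no CCAAT box. The other 2 windows of Cept1, at starts further along the gene, have 66% with 3 GC boxes and no CCAAT box, and 27.3% with no GC box and 1 CCAAT box. Chkb has 51.7% with 1 GC box and 2 CCAAT boxes. Among all 32851 windows of this kind, 35.7% held a GC box and 37.4% a CCAAT box, and the median share of G and C was 52.7%. These shares are not matched for G and C. Of the 10 genes, 9 had a window, all but Pcyt2, with 14 windows in all. Of the 14, 10 held a GC box and 6 a CCAAT box. None of the 14 held the E-box (CACGTG), the amino acid response element searched as TGATGNAAT, or direct repeats of AGGTCA with 1 or with 4 bases of any kind between the copies, which 7.15%, 0.965%, 0.0396% and 0.0152% of all windows hold. A sterol regulatory element, searched as TCACNCCAC, was found once, 116 bases before a start of Pcyt1a and so in 2 of its overlapping windows, and in 1.24% of all windows. A match is only a match of letters.

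The choline kinases trap choline in the cell as phosphocholine. Chka lies on chromosome 19 from 3851773 to 3894369 in GRCm38. It had scaled read counts of 878, 1439, 1403 and 736 in the Low AA mice H1126, H828, H817 and H1315, and of 851, 648, 622 and 595 in the Control mice F129, F2212, F7111 and F2110. Mice H828 and H817 stood well above all others, while H1315 lay below Control mouse F129, so the diets overlapped. The means were 1114 ± 359.5 and 679 ± 117 (SD, n = 4 each), a log2 difference of 0.67 (SE 0.22, limma adjusted p = 0.258). This was the largest difference in either direction among the 10 genes, and the unadjusted p was 0.0123. With each of the 8 mice left out in turn the unadjusted p of Chka stayed below 0.05, with log2 differences from 0.53 to 0.85.

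Chkb, the other choline kinase, lies on chromosome 15 from 89426360 to 89429908. Its scaled read counts were 2934, 2876, 2673 and 2744 in Low AA mice H1126, H828, H817 and H1315, and 2523, 2612, 2125 and 2355 in Control mice F129, F2212, F7111 and F2110. Every Low AA mouse lay above every Control mouse, with a gap of 61 between H817 and F2212. The means were 2807 ± 119 and 2404 ± 214 (SD, n = 4 each), a log2 difference of 0.23 (SE 0.09, limma adjusted p = 0.380). With columns rescaled to equal totals, or with quantile normalization, the diets overlapped for Chkb, at log2 differences of 0.23 and 0.21. Chkb shares 1552 exon bases, 50.7% of its exons, with the read-through gene Gm44502 on the same strand, which runs on into Cpt1b, so its reads could be split in counting. Gm44502 is not among the genes tested. Cpt1b, a carnitine palmitoyltransferase, had 573 to 1051 on Low AA and 470 to 742 on Control. Its log2 difference was 0.53 (limma unadjusted p = 0.0212, adjusted p = 0.310), in the same direction as that of Chkb and larger. The part of the read-through in the Chkb difference was not tested.

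The ethanolamine kinases carry out the matching step for ethanolamine. Etnk1, on chromosome 6 from 143167221 to 143232307, had scaled read counts of 3147, 3867, 3310 and 2498 in Low AA mice H1126, H828, H817 and H1315, and of 2415, 2246, 3119 and 2268 in Control mice F129, F2212, F7111 and F2110. Only Control mouse F7111 and Low AA mouse H1315 lay in the range where the diets overlapped. The means were 3205.5 ± 563 and 2512 ± 412 (SD, n = 4 each), a log2 difference of 0.35 (SE 0.15, limma adjusted p = 0.409). Etnk2, the paralog that is abundant in liver, on chromosome 1 from 133363572 to 133380336, was the most variable of the 10 in Control mice. It had 12347, 9598, 12575 and 19385 in H1126, H828, H817 and H1315, and 9542, 15597, 15060 and 19003 in F129, F2212, F7111 and F2110. Both diets spanned almost the same range, and the log2 difference was -0.14, with a 95% confidence interval from -0.67 to 0.39 (limma adjusted p = 0.880). A difference of that size could not be resolved with this spread.

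The next pair of enzymes activate the phosphorylated head groups with CTP. Pcyt1a, which acts on phosphocholine and is held to be the rate-limiting enzyme of the CDP-choline route, lies on chromosome 16 from 32430921 to 32475070. It was among the steadiest of the 10 genes, with 2552, 2461, 2585 and 2337 in H1126, H828, H817 and H1315, and 2179, 2416, 2459 and 2480 in F129, F2212, F7111 and F2110. The diets overlapped, with H1315 below 3 of the Control mice and F129 below all Low AA mice. The log2 difference was 0.06, with a 95% confidence interval from -0.13 to 0.25 (limma adjusted p = 0.848). Pcyt2, which acts on phosphoethanolamine, lies on chromosome 11 from 120610087 to 120617936. It had 10232 to 10789 on Low AA and 9986 to 13113 on Control, a log2 difference of -0.09, with a 95% confidence interval from -0.34 to 0.15 (limma adjusted p = 0.810). Its Control values formed a high pair, 12319 and 13113 in F129 and F2212, and a low pair, 9986 and 10180 in F7111 and F2110, with the Low AA mice between the pairs.

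The phosphotransferases join the activated head group to diacylglycerol. Chpt1 makes phosphatidylcholine, and Cept1 makes both phosphatidylcholine and phosphatidylethanolamine. Chpt1, on chromosome 10 from 88452745 to 88504073, had scaled read counts of 6209, 6145, 4959 and 5869 in Low AA mice H1126, H828, H817 and H1315, and of 8173, 6882, 7713 and 7488 in Control mice F129, F2212, F7111 and F2110. Every Low AA mouse lay below every Control mouse, with a gap of 673 between H1126 and F2212. The means were 5796 ± 577 and 7564 ± 537 (SD, n = 4 each), a log2 difference of -0.39 (SE 0.10, limma adjusted p = 0.158). Its unadjusted p of 0.00373 was the smallest of the 10 and ranked 278 among all genes, and it stayed below 0.05 with each of the 8 mice left out in turn, with log2 differences from -0.43 to -0.31. The diets did not overlap for Chpt1 under any alternative tried.

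Cept1, on chromosome 3 from 106502260 to 106547802, had scaled read counts of 2022, 2113, 2063 and 1838 in H1126, H828, H817 and H1315, and of 1768, 1911, 1585 and 1497 in F129, F2212, F7111 and F2110. Here H1315 lay below Control mouse F2212, and the other Low AA mice lay above all Control mice. The means were 2009 ± 119.9 and 1690.25 ± 185 (SD, n = 4 each), a log2 difference of 0.25 (SE 0.10, limma adjusted p = 0.372). On the opposite strand, exons of Dennd2d cover 771 bases of Cept1, 24.7% of its exons, but Dennd2d had only 131 to 215 scaled read counts per mouse. The libraries were stranded, and whether the counting used the strand is not given in the sources used here.

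**Figure D2:**
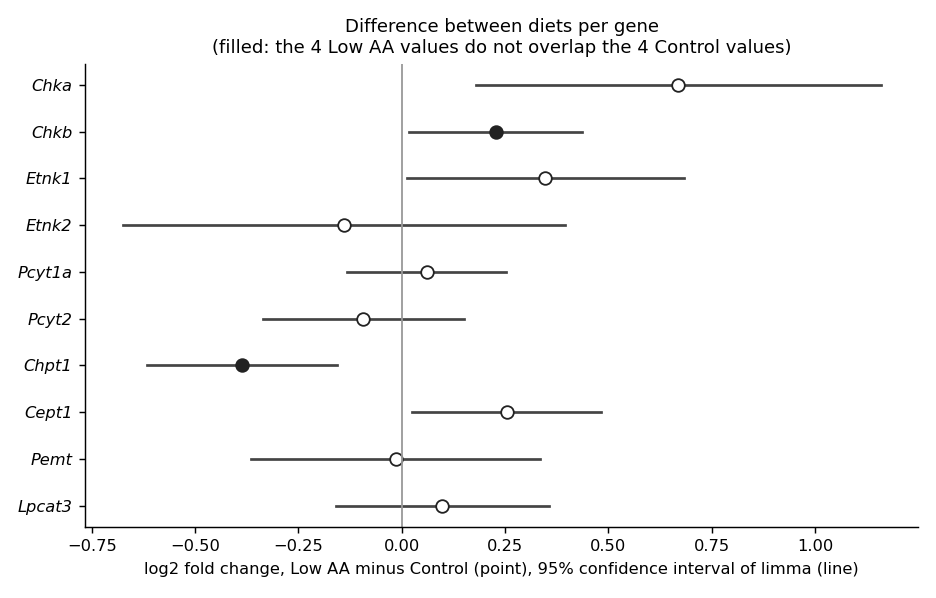
Log2 fold change, Low AA minus Control, of each of the 10 genes (points) with the 95% confidence interval from limma (lines). The intervals of Chka, Chkb, Etnk1 and Cept1 lie above 0 and that of Chpt1 below 0, before any adjustment for the number of genes tested, and filled points mark Chkb and Chpt1, whose diets did not overlap.

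Pemt and Lpcat3 act outside the CDP routes. Pemt, on chromosome 11 from 59970614 to 60046489, had 4582, 4639, 4812 and 6203 in Low AA mice H1126, H828, H817 and H1315, and 4339, 6846, 4841 and 4593 in Control mice F129, F2212, F7111 and F2110. In each diet 3 mice lay close together and 1 mouse, H1315 or F2212, stood well above them. The log2 difference was -0.014, with a 95% confidence interval from -0.36 to 0.34 (limma adjusted p = 0.987), and without Control mouse F2212 it was 0.13. Lpcat3, which fits polyunsaturated acyl chains into phosphatidylcholine and is a known target of the oxysterol receptor LXR, lies on chromosome 6 from 124663027 to 124704418. It had 3412 to 4041 on Low AA and 2980 to 4026 on Control, a log2 difference of 0.098, with a 95% confidence interval from -0.16 to 0.36 (limma adjusted p = 0.812). Its highest values were in the same mice as those of Pemt, 4041 in H1315 and 4026 in F2212.

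The ratio of 2 genes within a liver is not changed by any single factor applied to that liver's column, and 5 such ratios were compared between the diets. The log2 ratio of Chpt1 to Cept1 was 1.62, 1.54, 1.26 and 1.67 in Low AA mice H1126, H828, H817 and H1315, and 2.21, 1.85, 2.28 and 2.32 in Control mice F129, F2212, F7111 and F2110. The diets did not overlap, and the mean was 1.52 ± 0.18 on Low AA and 2.16 ± 0.22 on Control (SD, n = 4 each), a difference of -0.64 (exact permutation test, two-sided, p = 0.0286, adjusted over the 5 ratios 0.143). With single mice left out, the difference ran from -0.75 to -0.55. A ratio shows that the genes differed unequally, and not which of them did.

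The ratio of Chka to Chkb was higher on Low AA by 0.44 on the log2 scale (exact permutation test, two-sided, p = 0.2, adjusted over the 5 ratios 0.429), with ratios of 0.501 and 0.525 in H828 and H817 and 0.248 to 0.338 in the other 6 mice. The ratio of Etnk1 to Etnk2 was higher by 0.49 (exact permutation test, two-sided, p = 0.257, adjusted over the 5 ratios 0.429), and that of Pcyt1a to Pcyt2 by 0.15 (exact permutation test, two-sided, p = 0.371, adjusted over the 5 ratios 0.464). The ratio of Pemt to Pcyt1a, the methylation route against the CDP-choline route, overlapped between the diets, with a difference in mean log2 ratio of -0.075 (exact permutation test, two-sided, p = 0.514 before and after adjustment over the 5 ratios). Its highest value in each diet was again in H1315, at a ratio of 2.65, and in F2212, at 2.83.

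**Figure D3:**
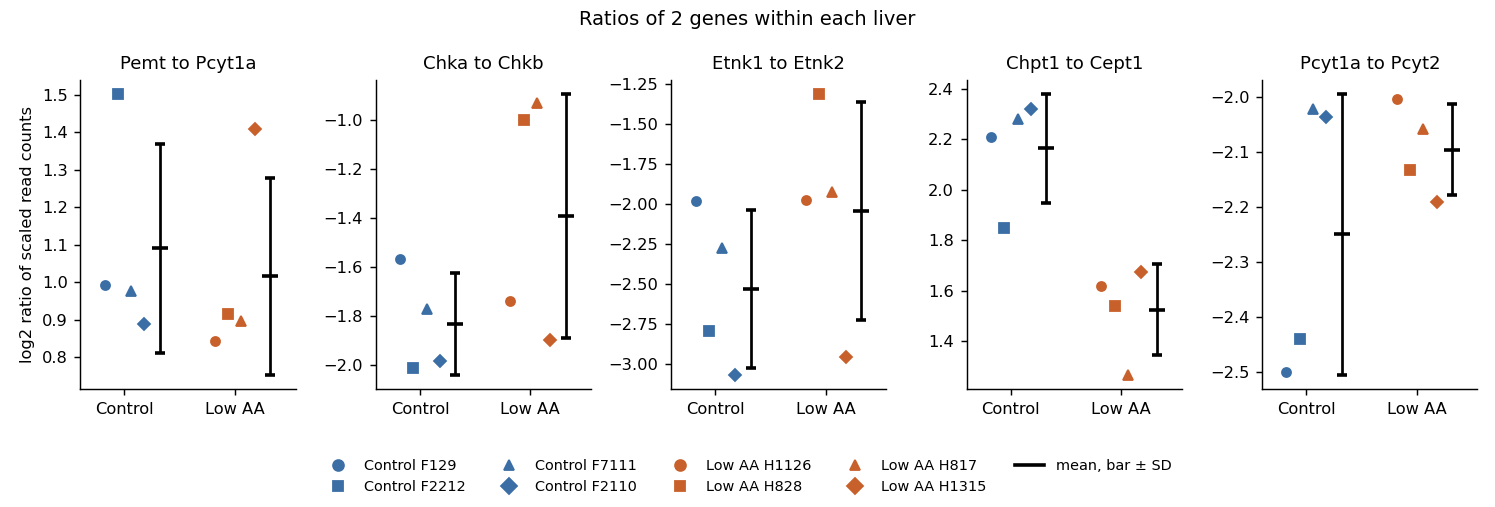
Log2 ratio of the scaled read counts of 2 genes within each of the 8 livers, by diet, with 1 marker per mouse and the mean with its SD (n = 4) beside them; vertical axes differ and do not start at 0. The ratio of Chpt1 to Cept1 separates the diets, and the other 4 ratios overlap.

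Low AA mouse H1315 was the Low AA mouse with the lowest value for Chka, Pcyt1a, Cept1 and Etnk1 and with the highest for Etnk2, Pemt and Lpcat3. Without it, 5 of the 10 genes had no overlap between diets, Chka, Chkb, Chpt1, Cept1 and Etnk1, where 12.7% of all genes had none in the same 7 mice. The count was 2 or 3 with any other mouse left out instead, where 7.98% to 12.2% of all genes had no overlap. Mouse H828 had the highest Chka, Etnk1 and Cept1 of the 8 mice.

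Per kilobase of exon, the Control means in scaled read counts fell into tiers. Etnk2 (3241), Pcyt2 (2623) and Pemt (2450) were highest, and their ranges over the Control mice overlapped. Lpcat3 (1054), Chpt1 (909) and Chkb (785) followed, each overlapping its neighbour in that order, and then Cept1 (542), Pcyt1a (322), Etnk1 (178) and Chka (56.5), whose ranges were apart. On the Low AA diet Chkb, at 873 to 959 per kilobase, lay above Chpt1, at 596 to 746, and Chpt1 overlapped Cept1, at 590 to 678. In the Control mice Chpt1, at 827 to 982, overlapped Chkb, at 694 to 853, and lay above Cept1, at 480 to 613. Lengths were those of all annotated exons of a gene together, so a gene with long or rarely used exons, such as Chka or Etnk1, can be placed too low. Chkb can be too, if reads of the 50.7% of its exons shared with Gm44502 were split. Exons of Emg1 on the opposite strand, a gene with 698 to 1052 scaled read counts per mouse, cover 10.2% of those of Lpcat3.

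Around these genes, 9 lists of related genes held 95 genes, 86 of them in the table. None of the 86 passed an adjusted p under 0.05 in limma, where 0.399% of all genes did, and 12 had an unadjusted p under 0.05, 7 higher and 5 lower, where 11.8% of all genes did. The largest of these with no overlap between diets was in ethanolamine breakdown. Agxt2l1, now called Etnppl, which degrades phosphoethanolamine, had scaled read counts of 1681, 2770, 2931 and 2639 in Low AA mice H1126, H828, H817 and H1315, and of 4240, 3989, 5517 and 6325 in Control mice F129, F2212, F7111 and F2110. Every Low AA mouse lay below every Control mouse, and the log2 difference was -1.01 (SE 0.20, limma adjusted p = 0.0738). Without Control mouse F2212 the limma adjusted p of Agxt2l1 was 0.0497, the only such call among the 86 genes with any mouse left out.

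In the same list of 6 enzymes of phosphatidylserine and ethanolamine phospholipids, Ept1, now Selenoi, the ethanolamine phosphotransferase that is the counterpart of Chpt1, had 2046 to 2760 on Low AA and 1488 to 2062 on Control, a log2 difference of 0.41 (limma adjusted p = 0.258). The phosphatidylserine synthases were named after their values were seen. Ptdss1 had 1142 to 1188 on Low AA and 1198 to 1445 on Control, a log2 difference of -0.17 with no overlap (limma adjusted p = 0.521), and Ptdss2 had 349 to 466 and 293 to 380, a log2 difference of 0.31 with overlap (limma adjusted p = 0.389). The list median was -0.022.

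Among 13 genes of choline oxidation and methyl supply, 0 were called, 3 had an unadjusted p under 0.05 and the median log2 difference was -0.079. Aldh7a1, which oxidises betaine aldehyde on the way from choline to betaine, had 7436 ± 825 on Low AA and 10841 ± 1385 on Control (SD, n = 4 each), a log2 difference of -0.54 with no overlap (limma adjusted p = 0.0977). Chdh, of the same path and named after its value was seen, was at -0.15 with overlap (limma adjusted p = 0.678). Mat2a, an S-adenosylmethionine synthetase, had 4383 ± 354 and 3076 ± 474 (SD, n = 4 each), a log2 difference of 0.52 with no overlap (limma adjusted p = 0.119). Mat1a, a far more abundant synthetase of the same kind, was named after its value was seen. It had 413350 ± 59305 and 315720 ± 76918 (SD, n = 4 each), a log2 difference of 0.41 with overlap (limma adjusted p = 0.457). Nnmt, which methylates nicotinamide and so uses the same methyl donor as Pemt, was named after its value was seen. Its log2 difference was -1.45, with 940 to 4563 on Low AA and 3574 to 7547 on Control (limma adjusted p = 0.220).

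The 13 genes that supply glycerolipid precursors had a median log2 difference of 0.18, with 9 of the 13 above 0 and 2 at an unadjusted p under 0.05. Agpat9, now Gpat3, which starts glycerolipid synthesis from glycerol 3-phosphate, had 937 ± 111 on Low AA and 548.5 ± 123 on Control (SD, n = 4 each), a log2 difference of 0.79 with no overlap (limma adjusted p = 0.0847). Its paralog Agpat6, now Gpat4, had a log2 difference of 0.49 (limma adjusted p = 0.199). Among 8 genes of phosphatidylcholine turnover the median was -0.21, with Abhd3, a phospholipase of medium-chain phosphatidylcholines, at -0.50 (limma adjusted p = 0.081) and Gdpd1, a lysophospholipase D with 29 to 53 scaled read counts per mouse, at 0.50 (limma adjusted p = 0.321), both with no overlap. Among 12 transport genes the median was 0.043, with Pltp, the plasma phospholipid transfer protein, at -0.51 with no overlap (limma adjusted p = 0.146) and Pctp, the phosphatidylcholine transfer protein, at 0.27 (limma adjusted p = 0.392).

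No gene had an unadjusted p under 0.05 in the other 4 lists. In choline and ethanolamine uptake the 6 genes had log2 differences from -0.18 to 0.11, with Slc44a3 at -0.18 and Mfsd7c, now Flvcr2, at -0.17. In acyl chain remodelling the 12 genes ran from -0.26 to 0.20, with Mboat7 at -0.25 and Pla2g6 at -0.23. In the CDP-diacylglycerol branch the 6 genes ran from -0.050 to 0.28, with Crls1, the cardiolipin synthase, at 0.28 and Pgs1 at 0.25. Among 10 regulators and LXR targets the range was -0.32 to 0.32, with Abcg5 at 0.32 and Ppara at 0.23.

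**Figure D4:**
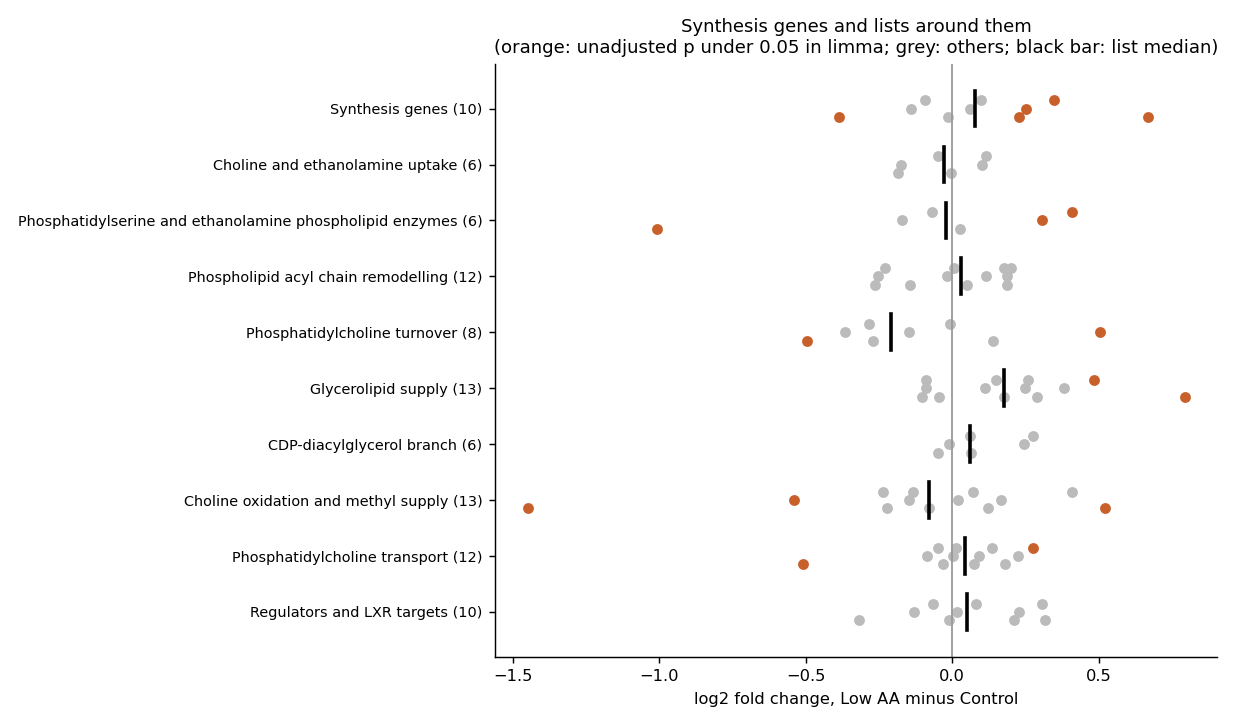
Log2 fold change, Low AA minus Control, of the 10 synthesis genes and of the 86 genes in 9 lists around them, with 1 point per gene, in orange where the unadjusted limma p was under 0.05, and a black bar at each list median. Points of both directions occur in every list, and the medians run from -0.21 to 0.18.

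Across the 8 livers scaled read counts summed to between 27876664 and 30799385 per mouse. All 8 hepatocyte markers were present, with sums of 2544020 to 2745511 on Low AA and 2254196 to 2656882 on Control. Alb alone made up 1321262 to 1789498 of the sum in each mouse, and 6 of the 8 markers had log2 differences above 0. Sums of the 7 Kupffer cell, 6 stellate cell and 5 endothelial markers overlapped between the diets, at 6179 to 9624, 8137 to 10642 and 4307 to 6228 on Control and 6729 to 9693, 8372 to 10525 and 5321 to 5865 on Low AA. All 7 Kupffer cell markers had log2 differences above 0, with a median of 0.24, and Col1a1 among the stellate cell markers was at -1.07 with no overlap. The 4 of 5 cholangiocyte markers in the table summed to 1124 to 2265 on Control and 826 to 1316 on Low AA, the 5 of 6 blood markers to 7429 to 27807 and 9538 to 13915, and the single adipose marker in the table, of 5, to 147 to 743 and 209 to 1050. All 4 cholangiocyte markers had log2 differences below 0, with a median of -0.62, and 4 of the 5 blood markers did, with Alas2 at -0.49 and no overlap. The only pancreas marker in the table, of 9, was at 36587 in Control mouse F2212 and at 130 to 288 in the other mice. Each gene in the table reached 28 in at least 3 mice, so markers high in F2212 alone could be absent. The 8 acute-phase genes summed to 111394 to 291301 on Control, highest in F2212, and to 87255 to 111164 on Low AA. All 8 had log2 differences below 0, with a median of -0.92 and with no overlap for Saa1, at -3.49, and Orm1, at -2.06. None of these marker genes passed an adjusted p under 0.05 in limma. Their part in the differences between diets was not tested. In whole liver RNA, fewer cells of a type and less RNA per cell cannot be told apart.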

How the data were processed

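Liver RNA of 8 mice was compared, 4 per diet, each mouse being 1 replicate grouped by its diet label. The authors deposited a signal per gene and mouse, whole numbers taken to be scaled read counts because their medians were close, at 433.0 to 449.0 per mouse. The scaling is not given in the sources used here, but the submitters' processing notes name STAR 2.5.0a, RSEM 1.2.6, edgeR 3.10.5 and mm10. Genes of low expression had been removed, as each gene reached 28 in at least 3 mice. The deposited table also holds the authors' signed fold change, a score, and their FDR, a q-value, and neither entered the comparisons.

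A count model needs raw counts, so log2(value + 1) was fitted by limma 3.58.1 (R 4.3.3) to all 11784 genes, letting the variance follow the mean, and p-values were adjusted by Benjamini-Hochberg over all of them. No filter was applied. Ratios were compared by exact permutation tests (scipy 1.17.1). Named genes were the 10 genes and, in each list, the genes called or else the 2 with the smallest p. Older symbols were matched through RefSeq synonyms. Locations are from GENCODE M21 on GRCm38, the assembly of mm10. In its transcripts no stretch of 100 bases was shared between any of the 10 genes. The genes and lists were chosen with earlier results of these data known. Alternatives were pseudocounts of 0.1 and 5, only the 8000 most abundant genes, 3 other scalings, no trend, robust moderation, and each mouse left out. Replicates had the same value in at most 0.942% of genes. Figures were drawn with matplotlib 3.10.9.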

Additional observations from a re-analysis of the deposited data

Results flagged for a closer look

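Pemt in Low AA mouse H1315 stood above the other Low AA mice, with a gap to the nearest of them of 0.838 of the range of the 4 mice on the log2 scale. The ratio of Pemt to Pcyt1a did the same in H1315 among the Low AA mice, at 0.876, and in F2212 among the Control mice, at 0.830. Each gap lay above the critical value of Dixon's test for 4 samples. In all 30 groups of 4 mice were examined, and chance flags about 1 in 20. The 3 values share genes and mice, so they are not separate observations. Mouse F2212 is also the mouse with the high pancreas marker and the highest sum of acute-phase genes, and their part in its Pemt value was not tested.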

How the results depend on the processing

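No member was called with any of the 8 mice left out or under the 8 other settings, and the log2 fold changes of Chka, Chkb, Etnk1, Cept1, Chpt1, Pcyt1a, Pcyt2 and Lpcat3 kept their sign in all of them. That of Pemt, near 0, was 0.0017 with equal medians and ran from -0.12 to 0.13 with single mice left out, above 0 without F2212 (0.13), H1126 (0.029), H828 (0.023) and H817 (0.0057). That of Etnk2 ran from -0.34 to 0.0072, the last without H828. The difference in the ratio of Pemt to Pcyt1a ran from -0.21 to 0.063, above 0 only without F2212. Of the 10 genes, 1, Chpt1, had no overlap with equal column totals or quantile normalization (6.54% and 6.64% of all genes), and 2 to 5 did with single mice left out (7.98% to 12.7% of all genes). An unadjusted p under 0.05 was held by 3 genes without the trend (11.7% of all genes) and by 2 to 4 with single mice left out (7.84% to 13.3% of all genes), 2 without F2110, H1126 or H828, and 3 without F7111 or H817. Genes called in the whole table numbered 19 among the 8000 with the highest mean, 30 without the trend, and 16 to 77 with single mice left out, with 29 without F129, 77 without F2212, 21 without H1126, 19 without H828 and 16 without H817. The causes were not tested. With 3 mice against 4 the two-sided exact permutation test used here, which doubles the smaller tail, cannot give a p below 0.0571. Ratios there are therefore values only. No paired analysis was possible because the mice carry codes that are not shared between the diets. With 4 mice per diet and the totals scaled, the spread between mice limits what small differences can be resolved. Mice of the study were group housed, and which of these mice shared a cage is not given in the labels. Any effect of a shared cage was not tested.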
